A study of Mus musculus with 7 samples.

Results

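Wells of gastric epithelium in which Ghrl, the gene of the hormone ghrelin, supplied at least 1% of the transcripts numbered 96 of the 2235 wells kept as cells. They are called Ghrl-high wells here. They were chosen on Ghrl alone, in wells with at least 1000 unique molecular identifiers (UMIs, each tagging 1 captured transcript) after the added spike-in RNA was left out, so the Ghrl level itself is a description and not a finding. They were compared with all other kept wells and with wells of enterochromaffin-like (ECL) type, defined as Hdc at 0.05% or more and Chga at 0.3% or more of UMIs. Ghrl-high wells that also met this ECL rule were counted as Ghrl-high, and the name ECL wells is kept for the 172 wells that met it with Ghrl under 1%. The other 1967 kept wells met neither rule.

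The plates came from C57BL/6 mice and were grouped by the stomach region in their labels. The labels do not give sex, and whether the plates of the regions also differed in other ways was not tested. Corpus, the acid-secreting body, filled 4 plates and pylorus, the outlet, filled 3. All samples are labelled WT, that is wild type, and no treatment or age is named. Epithelial glands were freed by chelation and broken into single cells with an enzyme, and DAPI-negative, that is living, cells were sorted into plates of 384 wells for SORT-seq, in which each well is 1 library of a sorted cell. The labels do not say which plates shared an animal, so p-values measure the spread between plates.

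Ghrelin is made as a longer precursor that prohormone convertases cut, and it acts on its receptor only after the acyltransferase Mboat4 (GOAT) has attached a medium-chain fatty acid. It is stored in granules of closed endocrine cells, known as X/A-like cells in rodents, which are most common in the acid-secreting mucosa and raise hunger and growth hormone release. ECL cells lie in the same glands and release histamine, made from histidine by Hdc and loaded into granules by the vesicular amine transporter Slc18a2. Chromogranin A, from Chga, is a granule protein of most endocrine cells.

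The label given to these wells, ghrelin-producing X/A-like cells, carries the markers Ghrl, Chga, Rfx6, Neurod1 and Acsl1. These markers did not all point one way. Of the 96 wells, 79 met the ECL rule, and among these Neurod1 had a UMI in 3 wells and Acsl1 in 40, at 0 to 5 UMIs a well. Of the 17 wells outside the ECL rule, Neurod1 had a UMI in 9 and Acsl1 in 14, at 0 to 73 UMIs a well. Rfx6 did not divide them in this way, with a UMI in 51 of the 79 and 11 of the 17 wells, and Chga was higher in the wells meeting the ECL rule (median 5.46% of UMIs) than outside it (0.769%). Most Ghrl-high wells thus carried the genes that define ECL cells, so the label was not used for all 96. The 2 kinds are therefore described by their rule, as Ghrl-high wells meeting the ECL rule and Ghrl-high wells outside it.

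The plates held 2646492 to 9511078 UMIs. Corpus replicate 1 and pylorus replicate 1 were shallower, with 4.27% and 6.55% of their UMIs in spike-ins against 0.256% to 0.426% in the other 5. The library labelled corpus replicate 1 also held 3362 UMIs of Gast, the gastrin gene of antral G cells, where the other 6 plates had 0. Those 6 include every pylorus plate. Whether the labels match the regions was not tested, so corpus and pylorus below mean the labels. Corpus replicate 1 was counted as corpus in the share tests, as labelled. No kept well repeated the counts of another, and all 384 well numbers occurred in every plate. No doublet caller was run on these sorted wells.

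Some promoter sequences are shown as background, and no role of theirs in the 2 kinds was tested. The promoters shown are those of Ghrl, which chose the wells, of Acsl1 and Scg2, which were high outside the ECL rule, and of Hdc, the ECL enzyme. Each is the 250 bases before the transcript start that lies farthest upstream, 5′ to 3′ on the gene's strand, from RefSeq on GRCm38.p6 (the counts were made on mm9, and no coordinate was carried over). Capitals mark the E-box CAGNTG on either strand, where N is any base, so that CANCTG is marked too. This is a form of the motif bound by basic helix-loop-helix factors, the family of Neurod1 and Ptf1a.
Ghrl, minus strand, chr6:113719912-113720161: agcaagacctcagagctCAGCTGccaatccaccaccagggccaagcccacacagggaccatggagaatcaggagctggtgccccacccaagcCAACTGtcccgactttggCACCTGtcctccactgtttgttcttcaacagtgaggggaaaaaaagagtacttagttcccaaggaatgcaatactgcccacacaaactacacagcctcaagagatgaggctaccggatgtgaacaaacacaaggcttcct
Acsl1, plus strand, chr8:46470787-46471036: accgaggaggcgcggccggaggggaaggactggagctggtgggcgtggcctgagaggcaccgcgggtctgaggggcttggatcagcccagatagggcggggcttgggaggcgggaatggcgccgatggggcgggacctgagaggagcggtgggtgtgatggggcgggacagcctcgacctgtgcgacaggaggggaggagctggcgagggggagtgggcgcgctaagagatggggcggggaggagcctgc
Scg2, minus strand, chr1:79440027-79440276: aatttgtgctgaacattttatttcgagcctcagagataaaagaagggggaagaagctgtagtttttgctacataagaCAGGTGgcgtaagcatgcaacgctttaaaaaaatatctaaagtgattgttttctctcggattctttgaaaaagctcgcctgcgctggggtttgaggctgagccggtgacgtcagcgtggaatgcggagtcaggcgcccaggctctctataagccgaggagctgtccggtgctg
Hdc, minus strand, chr2:126618679-126618928: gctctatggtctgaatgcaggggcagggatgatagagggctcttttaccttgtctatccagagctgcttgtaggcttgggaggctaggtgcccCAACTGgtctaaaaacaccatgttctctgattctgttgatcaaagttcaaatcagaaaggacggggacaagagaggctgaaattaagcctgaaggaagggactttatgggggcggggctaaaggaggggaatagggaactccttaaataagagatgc

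The Ghrl window held 3 matches, those of Scg2 and Hdc held 1 each, and that of Acsl1 held 0. Ghrl has 4 starts in the table, and 2 of its 4 windows held a match. The second Acsl1 window held 2. Of all 32851 windows of this length in the table, 14723 (44.8%) held at least 1 match, so such a match is common. Among the genes named below from the comparison outside the ECL rule, 11 higher genes and 11 lower genes were matched to the table, and 6 of each had a window with a match. The motif thus did not separate the 2 sets. These genes had 1 or 2 windows each, so their counts are not on the scale of the 44.8% of single windows.

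Ghrl made up a very different part of the transcripts in the 2 kinds. In the 17 wells outside the ECL rule, Ghrl ran from 1.88% through a median of 20.6% to 41.8% of UMIs. In the 79 wells meeting the ECL rule it ran from 1.01% through 2.19% to 11.5%. ECL wells had 0% to 0.975% with a median of 0.195%, and the wells of neither rule had 0% to 0.83% with a median of 0.0289%. The ranges of the 2 Ghrl-high kinds overlapped.

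The 1% limit cut through a continuous range. Just below it, from 0.5% to 1%, lay 39 wells, of which 35 met the ECL rule. From 1% to 2% lay 38 wells, 37 of them meeting it, and from 2% to 5% all 35 wells met it. From 5% to 10% the 8 wells split into 5 meeting the rule and 3 outside. At 10% or more stood 15 wells, of which 13 lay outside the ECL rule. The lowest Ghrl-high well of a plate had 1.01% to 1.88%, and the highest well under the limit had 0.624% to 0.975%.

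**Figure D1:**
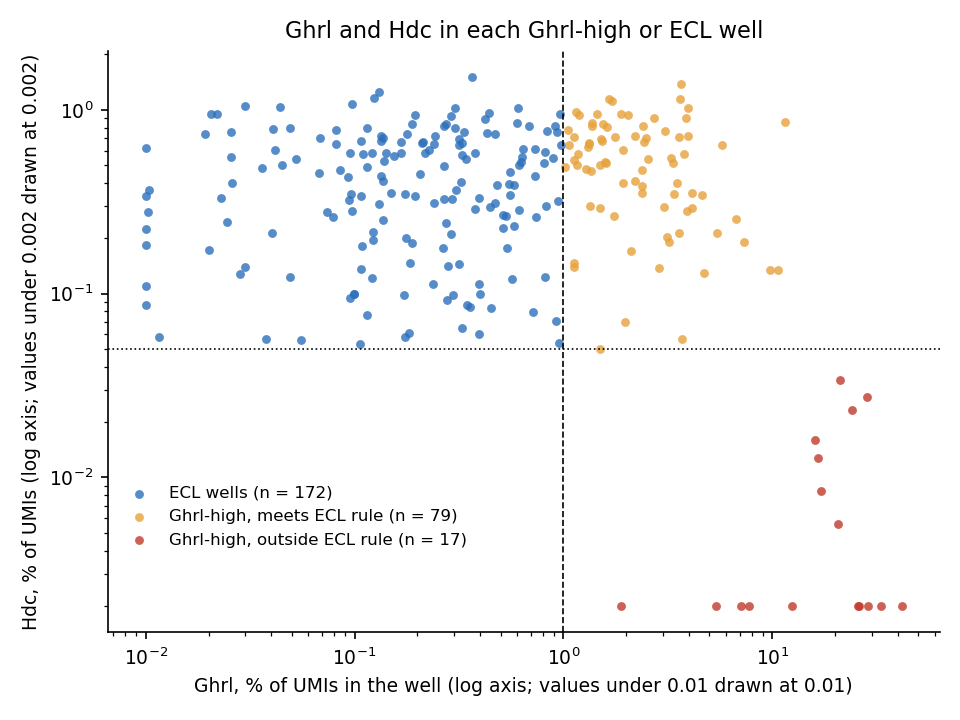
Each point is a well, with Ghrl on the horizontal and Hdc on the vertical axis, both as % of UMIs on log axes. Dashed and dotted lines mark 1% Ghrl and 0.05% Hdc. The 79 wells meeting the ECL rule continue the cloud of 172 ECL wells across the dashed line, while the 17 wells outside the rule lie at low Hdc, most of them at 10% Ghrl or more.

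The other genes of the rules gave the reverse order. Hdc, the histamine-forming enzyme, had a median of 0% outside the ECL rule (0% to 0.034%), with a UMI in 7 of the 17 wells. It had a median of 0.531% in the wells meeting the rule (0.0502% to 1.38%) and of 0.401% in ECL wells. Chga ran from 0% through 0.769% to 1.92% outside the rule, against medians of 5.46% in wells meeting it and 4.92% in ECL wells. The wells of neither rule had median shares of 0.00308% for Hdc and 0.0871% for Chga. Hdc and Chga defined the kinds, so these values carry no test.

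The kinds differed in depth. The median well held 10044 UMIs and 3087 genes outside the ECL rule, 14504 UMIs and 4108 genes among those meeting it, 10077.5 UMIs and 3239.5 genes among ECL wells, and 20870 UMIs and 3906 genes among wells of neither rule. A 6-base UMI has 4096 sequences, and 8 Ghrl-high wells had at least 3000 Ghrl UMIs, the highest 4056. In such wells further Ghrl transcripts add few new UMIs. If every repeat of a UMI is allowed for, the median Ghrl share of the 11 wells outside the ECL rule that had Scg2 would be 39.1% (27.9% to 50.1%) in place of 24.2% (16.0% to 33.1%).

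Ghrl transcripts were also present in wells of neither rule, and their level differed by plate. Corpus replicates 1 to 4 had 67.8, 403, 296 and 147 Ghrl CPM in those wells (CPM scales counts to 1000000, here of all UMIs). Pylorus replicates 1 to 3 had 133, 940 and 1170 CPM. Wells with at least 5 UMIs of immune genes should lack Ghrl. They had 153, 297, 465 and 136 CPM in the corpus plates and 84.1, 1079 and 1121 CPM in the pylorus plates. These immune wells numbered only 3, 3, 27 and 33 in the corpus plates and 5, 31 and 49 in the pylorus plates. The background in immune wells was thus of the same order as in the wells of neither rule, and highest in pylorus replicates 2 and 3 in both.

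The Ghrl limit lay above that background in every plate, so the Ghrl-high wells had to exceed it by rule. The ratios, share and subtraction below use the values that chose the wells and are a description. The lowest Ghrl-high well exceeded the Ghrl level of the wells of neither rule by 277-, 25.1-, 35.5- and 75.9-fold in the 4 corpus plates. The same ratio was 89.3-, 12.3- and 9.59-fold in the pylorus plates. Ghrl-high wells held 61.5% to 85.6% of all Ghrl UMIs of a plate, wells under 1000 UMIs included. When each plate's background was subtracted, 95 wells remained Ghrl-high. ECL wells, which lay under the limit by definition, were closer to the background. They had 2280, 3639, 2645 and 2335 CPM in the corpus and 1593, 3458 and 3141 CPM in the pylorus plates. By plate in the same order, they stood 33.6-, 9.04-, 8.94- and 15.8-fold above background in the corpus and 12-, 3.68- and 2.68-fold in the pylorus.

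**Figure D2:**
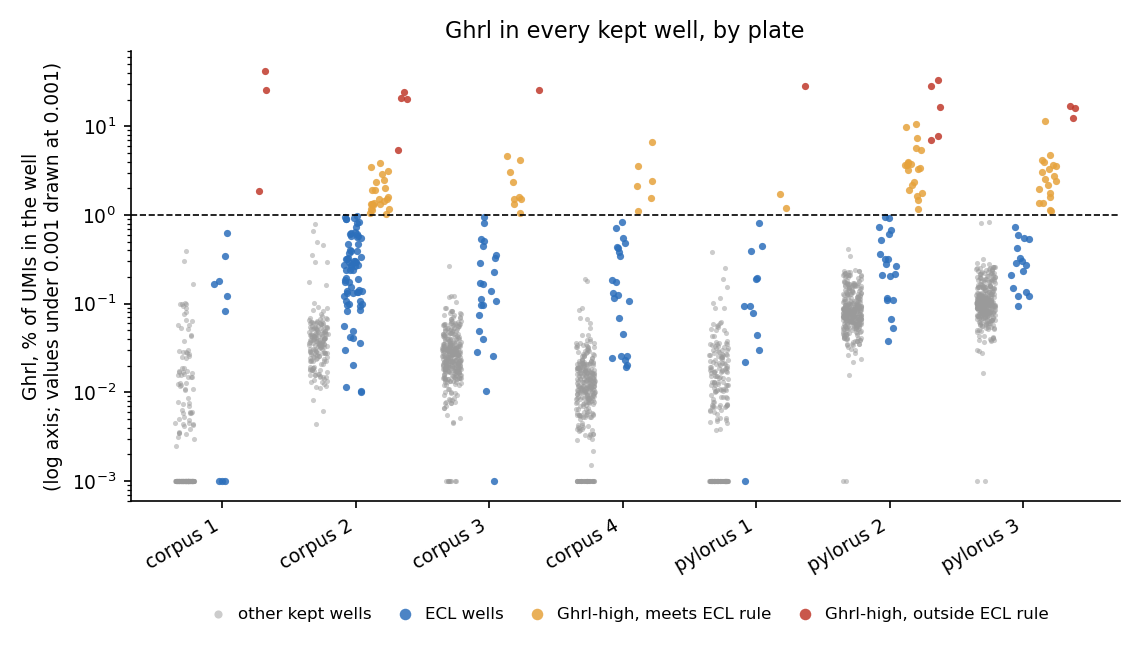
Points are all kept wells by plate, coloured by kind, and the vertical log axis gives Ghrl as % of the UMIs of the well. The grey wells of neither rule sit higher in pylorus replicates 2 and 3 (940 and 1170 CPM) than in the other plates, and the red wells outside the ECL rule reach above 10% in 6 of the 7 plates, corpus replicate 4 having 0 such wells.

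The 17 wells outside the ECL rule came as 3, 4, 1 and 0 from the corpus plates and 1, 5 and 3 from the pylorus plates. They were not uniform. A grouping chosen after their values were seen separates 11 wells with Scg2 UMIs, 4 without Scg2 but with Slc18a2, and 2 with neither. The 2 last were shallow wells of the library labelled corpus replicate 1, with 1170 and 1372 UMIs and Ghrl at 1.88% and 41.8%.

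The 11 wells with Scg2 also held the label's marker Acsl1. Acsl1, which links coenzyme A to long-chain fatty acids, had 2 to 73 UMIs a well with a median of 34. Scg2, the granule protein secretogranin II, had 2 to 25 UMIs with a median of 20. Scgn, the calcium-binding protein secretagogin, had 2 to 23 UMIs with a median of 9. Acsl1 and Scgn were thus seen in all 11 wells, in a grouping chosen after their values were seen. The adhesion molecule gene Ceacam10 had 8 to 73 UMIs with a median of 47.

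Transcription factors of endocrine differentiation were present in most of the same 11 wells, at few UMIs each. Neurod1 had a UMI in 9 wells, Isl1 in 10 and Nkx2-2 in 9, with at most 11, 10 and 5 UMIs a well. Rfx6, which acts in endocrine progenitors and mature endocrine cells, had a UMI in 7 wells. Mboat4, the ghrelin acyltransferase, had a UMI in 10 of the 11 wells, with at most 12. Slc18a2 reached 8 UMIs and Pappa2, a protease of insulin-like growth factor binding proteins that was abundant in ECL wells, had a UMI in 2 of the 11 wells.

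The 4 wells with Slc18a2 but no Scg2 looked different. Their Ghrl was 5.38% to 12.4% and their Chga 0.769% to 1.92% of UMIs. Slc18a2 had 9 to 47 UMIs and Rfx6 1 to 8 UMIs a well, and Mboat4 was seen in 3 wells. Scg2, Scgn, Neurod1, Isl1 and Nkx2-2 were at 0 in all 4, at 4942 to 14874 UMIs a well, and Acsl1 had 0 to 4 UMIs. Slc18a2 and the lack of Scg2 chose these 4 wells, so both only describe the choice. Beyond that, the wells had Ghrl, Rfx6 and mostly Mboat4, but lacked UMIs of Scgn, Neurod1, Isl1 and Nkx2-2.

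The 79 wells meeting the ECL rule carried ECL genes throughout. Slc18a2 had a UMI in 78 of them, with a median of 58, and Pappa2 in 73, with a median of 18. Ptf1a, a basic helix-loop-helix factor, had a UMI in 71 of the 79 wells and in 0 of the 17 wells outside the rule. Mboat4 was seen in 68 and Rfx6 in 51 of the 79, so both are shared by the 2 kinds. Scgn was at 0 in all 79, Scg2 had a UMI in 4, Isl1 in 4, Neurod1 in 3 and Nkx2-2 in 1. Acsl1 had a UMI in 40 of the 79 wells.

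From here on, CPM is per 1000000 UMIs other than those of Ghrl, Hdc and Chga, unless said otherwise. Acsl1 was also read by range of Ghrl. Among wells meeting the rule, the pooled Acsl1 level was 58.0 CPM at 1% to 2% Ghrl, 60.1 at 2% to 5%, 96.9 at 5% to 10% (5 wells) and 230 at 10% or more (2 wells). Outside the rule it was 195 CPM at 5% to 10% (3 wells) and 3074 CPM at 10% or more (13 wells). At least 10 Acsl1 UMIs were found in 8 wells, all outside the ECL rule and at 16.0% to 33.1% Ghrl.

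Genes that make active ghrelin were found in both kinds. Mboat4 stood at 376 CPM outside the rule, 370 in wells meeting it, 261 in ECL wells and 2.24 in wells of neither rule. Pcsk1, the prohormone convertase that cuts proghrelin, stood at 437, 394, 322 and 3.28 CPM in the same order. Pcsk2, a second convertase, stood at 308, 116, 126 and 13.3 CPM. Pcsk1n, whose product proSAAS inhibits Pcsk1, stood at 653, 11.1, 34.8 and 4.24 CPM. Convertase and acyltransferase transcripts were thus found in ECL wells too.

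**Figure D3:**
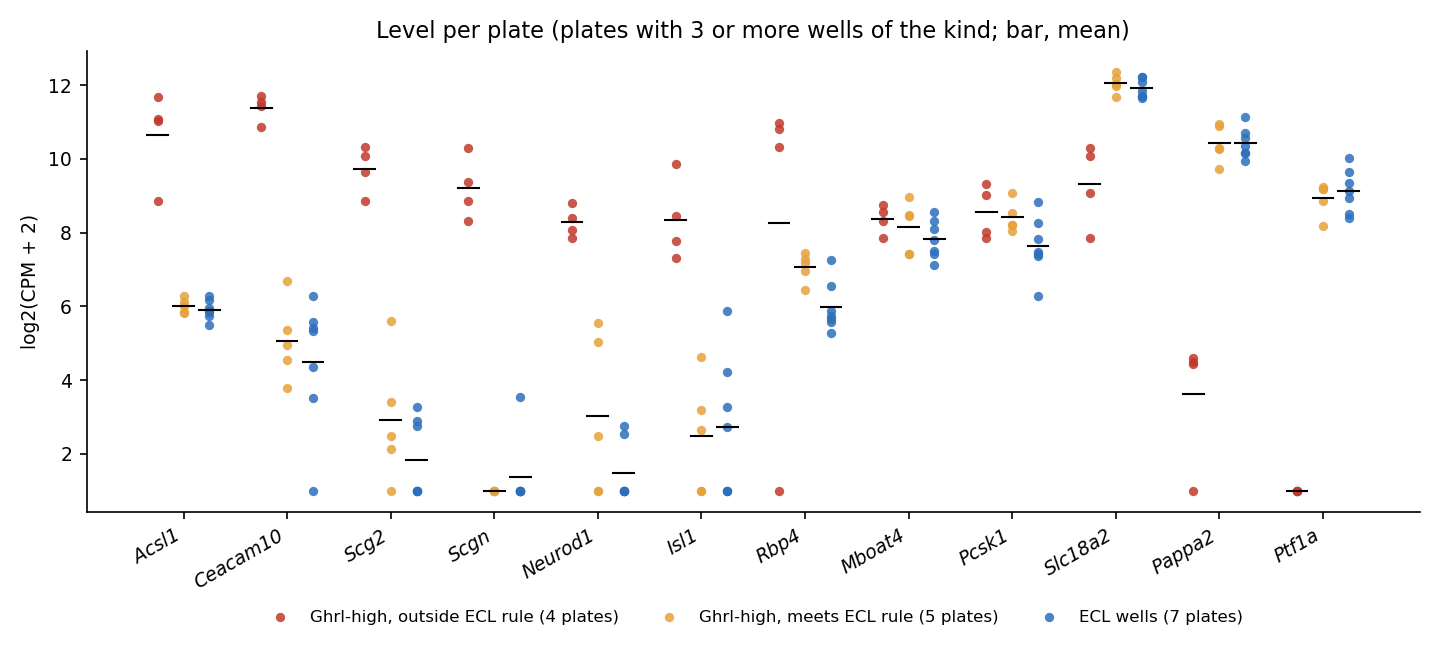
Each point is the level of a gene, as log2(CPM + 2), in the summed wells of 1 plate and kind, for plates with at least 3 such wells, and black bars are means over plates. Acsl1, Ceacam10, Scg2, Scgn, Neurod1 and Isl1 sit higher outside the ECL rule (pooled 2506, 2863, 991, 745, 326 and 259 CPM) than in wells meeting it (64.2, 30.8, 8.56, 0, 7.71 and 6.85 CPM), and Pappa2 and Ptf1a sit lower.

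The wells outside the ECL rule were tested against ECL wells of the same plates. This comparison was added after the number of wells in each kind was seen. It used corpus replicate 2, pylorus replicate 2 and pylorus replicate 3, the plates with at least 3 wells outside the rule other than the library labelled corpus replicate 1, and 12 such wells (4, 5 and 3) against 106 ECL wells, with 176997 against 1324366 UMIs. Counts were summed per plate and kind and fitted in limma with the plate as a block. Of 3035 genes tested, 82 passed an adjusted p under 0.05 (2.7%), 41 higher outside the rule (1.35%) and 41 lower (1.35%). The 12 wells mixed 8 that had Scg2 with 4 that had none, and the fit did not separate them. Only 2 residual degrees of freedom stood behind each gene before limma pooled the spread over genes. The filter on low counts could be met through a single kind. Scg2, Scgn and Neurod1 met it only through wells outside the rule. Genes with few or no UMIs there, such as Pappa2, met it only through ECL wells. Such genes entered the test because they were high in that kind. Their p-values, and the list counts that include them, are therefore a description.

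The lipid enzyme gene Acsl1 had the smallest adjusted p, and Scg2, Scgn, Neurod1 and Ceacam10 rose most. Normalised Acsl1 was 2986, 2167 and 2242 CPM outside the rule and 71.4, 43.1 and 52.4 CPM in ECL wells of the same plates. The groups did not overlap, and the difference was 5.43 ± 0.21 on the log2 scale (SE, limma, adjusted p = 9.67e-06). Acsl1 was the only one of 7 tested fatty acid genes to pass, of 26 on the list, and those 7 had a median of 0.08 beside -0.17 for all genes tested. Acot7, an acyl-CoA thioesterase, stood at 324 ± 91.1 CPM outside the rule and 273 ± 59.3 CPM in ECL wells (SD, 3 plates each).

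Granule genes moved in both directions. Normalised Scg2 was 1165, 838 and 1110 CPM outside the rule and 4.84, 5.39 and 0 CPM in ECL wells, a pooled ratio of 258. Scgn was 1146, 695 and 324 CPM against 9.68, 0 and 0 CPM, a pooled ratio of 116. Both passed in limma (log2 differences of 7.79 ± 0.64 and 7.47 ± 0.74), and so did Scg3, which helps sort granule cargo, at 1.38 ± 0.22. Chgb, chromogranin B, was lower, at 1409, 1063 and 1780 CPM against 6964, 4720 and 4966 CPM (-1.98 ± 0.20). Slc18a2 was lower as well, at 996, 1308 and 555 CPM against 3360, 4774 and 4418 CPM (-2.20 ± 0.25). Of the 141 Slc18a2 UMIs outside the rule in these plates, 111 came from the 4 wells without Scg2 and 30 from the 8 wells with it.

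Of the 9 tested genes in the list of granins and granule cargo, 3 were thus higher and 2 lower, with a list median of -0.26. Vgf, the source of several secreted peptides, was rare outside the rule, with 18.5 CPM pooled over all plates against 448 CPM in wells meeting it. Resp18, Ptprn and Ptprn2, also of endocrine granules, had 850, 265 and 757 CPM outside the rule and 795, 272 and 768 CPM in ECL wells, pooled. Of 14 tested exocytosis genes, Rab3c, a small GTPase of secretory vesicles, passed as lower (-2.03 ± 0.22), with a list median of -0.28. The synaptotagmin Syt7 stood at 1005 ± 131 against 1096 ± 89.9 CPM and did not pass.

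Among the 24 endocrine transcription factors in the tables, 10 had enough counts to be tested, 2 were higher and 1 lower, with a median of 0.46. Neurod1, which activates hormone genes, stood at 244, 348 and 462 CPM outside the rule and 4.84, 0 and 0 CPM in ECL wells (6.83 ± 0.98, adjusted p = 0.0081 in limma). Isl1, a LIM homeobox factor of endocrine cells, stood at 319, 225 and 162 CPM against 17.0, 0 and 0 CPM (5.76 ± 0.997). Insm1, a zinc finger factor of endocrine differentiation, was lower outside the rule (-1.49 ± 0.27). Nkx2-2 was too low for the test, with 30 UMIs outside the rule and 0 in ECL wells of these plates, at least 85.4-fold higher when 3 UMIs over all ECL wells are taken as the floor.

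Further tested factors of the list did not pass in limma. Rfx6 was 260 ± 164 CPM outside the rule against 94.7 ± 16.4 CPM in ECL wells (adjusted p = 0.146). Foxa1 and Foxa2, forkhead factors of gut epithelium, stood at 231 and 353 CPM against 300 and 216 CPM. Etv1 and Pax6 had too few counts for the test. Etv1 had 24 UMIs outside the rule and 11 in ECL wells of these plates, 166 against 8.93 CPM, a ratio of 18.6. Pax6 was at 0 in both Ghrl-high kinds and in ECL wells. Of the 4 tested X/A-like markers, Acsl1 and Neurod1 passed as higher, and Rfx6 and Mboat4 (369 ± 39.2 against 258 ± 72.7 CPM) did not pass.

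Of 9 tested genes for ghrelin maturation and prohormone processing, 2 were higher and 1 lower, with a median of 0.45. Pcsk2 was 338, 348 and 324 CPM outside the rule against 144, 75.4 and 81.0 CPM in ECL wells, without overlap (1.79 ± 0.32, adjusted p = 0.0234 in limma). Pcsk1n was higher by 3.68 ± 0.46 on the log2 scale. Pam, which amidates peptide hormones, was lower (-1.67 ± 0.28). Pcsk1 stood at 460 ± 170 against 331 ± 120 CPM and carboxypeptidase E, from Cpe, at 1870 ± 406 against 1271 ± 95.4 CPM, and neither passed.

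Ceacam10, Rbp4 and Nefm were among the other genes with the largest rises. Ceacam10 was 3080, 2862 and 3052 CPM outside the rule and 41.2, 37.7 and 9.53 CPM in ECL wells, a log2 difference of 6.79 ± 0.39. Rbp4, the retinol carrier of plasma, rose by 4.69 ± 0.34 and Nefm, a neurofilament subunit, by 6.35 ± 1.06. The carboxypeptidase Cpb2 (3.48), the glucuronosyltransferase Ugt2b34 (3.41) and Kctd12 (3.41), a partner of GABA-B receptors, complete the 12 largest. These genes were not on the lists of endocrine function.

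Lower genes included several secreted proteins. Pappa2 was 18.8, 20.4 and 23.1 CPM outside the rule and 2265, 1514 and 1334 CPM in ECL wells (-6.19 ± 0.32). Each of the values outside the rule is 1 UMI in the plate, so the difference and its SE rest on single UMIs. The activin antagonist follistatin, from Fst, was lower by -6.58 ± 1.01 on the log2 scale, fetuin-A, from Ahsg, by -6.45 ± 0.78, and Serpina7, a carrier of thyroid hormone, by -7.63 ± 0.79. Angiotensinogen (Agt, -6.16), vitronectin (Vtn, -5.15), the lipase relative Pnliprp1 (-6.62) and the amino acid transporter Slc38a5 (-5.23) were lower as well. All these genes are named as the largest falls, with at least 100 CPM in ECL wells.

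A further 4 genes had 0 UMIs in the 12 wells outside the rule. With 3 UMIs over those wells as the floor, Ptf1a was at least 25.8-fold lower and the tetraspan gene Lhfpl5 at least 18.2-fold lower than in ECL wells. The zinc transporter Slc39a8 and the kinase gene Camk1d were at least 8.82- and 8.74-fold lower. Their ECL wells held 661, 466, 226 and 224 UMIs of these genes, so depth outside the rule sets the bound.

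**Figure D4:**
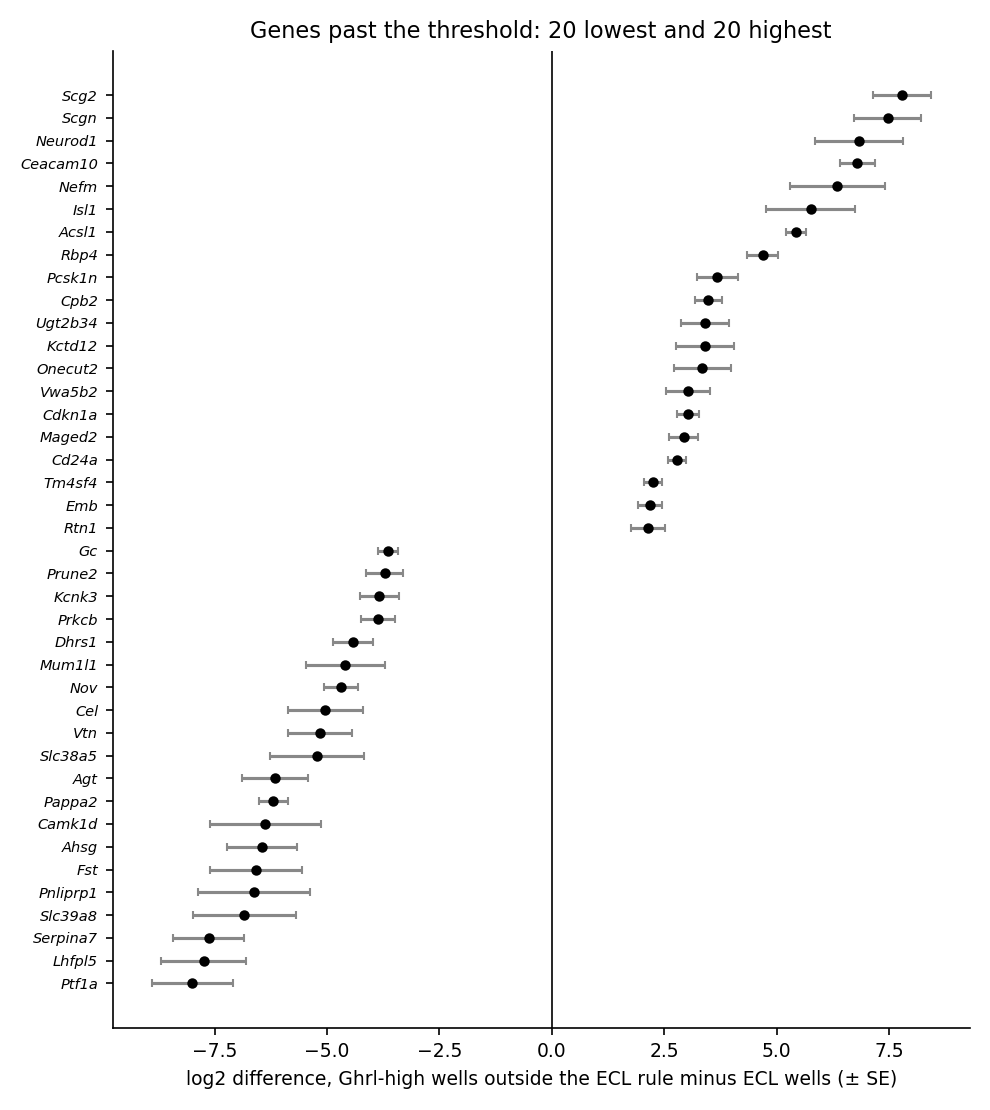
Points are log2 differences, Ghrl-high wells outside the ECL rule minus ECL wells. Shown are the 20 lowest and 20 highest of the 82 genes that passed in limma. Bars are limma's standard errors, in which the spread between the 3 plates is pooled over genes. Scg2, Scgn, Neurod1 and Ceacam10 lie at the upper end (7.79 to 6.79) and Serpina7, Lhfpl5 and Ptf1a at the lower end. For the genes at 0 outside the rule the plotted value depends on the pseudocount and is no bound. That of Pappa2 rests on 1 UMI a plate outside the rule.

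Hormones, amines and receptors had few members with enough counts. Of 19 hormone genes in the tables, Sst, the somatostatin gene of D cells, was the 1 tested, at 102 ± 127 CPM outside the rule and 870 ± 1457 CPM in ECL wells, without passing. Of 3 tested amine genes, Slc18a2 fell, while Ddc, which makes serotonin and dopamine from their precursors, had 618 ± 276 against 500 ± 106 CPM. Of 27 receptors in the tables, 5 were tested and 0 passed, with a list median of -1.09. Cckbr, the gastrin receptor of ECL cells, had 34.1 ± 59.0 CPM outside the rule and 336 ± 72.1 CPM in ECL wells (adjusted p = 0.062 in limma). The fatty acid receptor genes Ffar2 and Ffar4 had 166 and 105 CPM outside the rule and 91.9 and 34.8 CPM in ECL wells, pooled over all plates.

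Of 11 tested channel genes, the potassium channel gene Kcnk3 passed as lower (-3.84 ± 0.43), with a list median of -0.89. Txnip, the only tested gene for nutrient sensing and glucose handling, had 342 ± 137 against 251 ± 54.4 CPM and did not pass. Dissociation stress genes differed too: Fosb (1.66 ± 0.25) and Jun (1.15 ± 0.17) passed as higher among 11 tested, with a list median of 0.71. Of 15 tested mitochondrially encoded genes, the ribosomal RNA mt-Rnr1 was lower (-1.46 ± 0.17), with a median of -0.42. The part of stress or RNA quality in the other differences was not tested.

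Markers of other cell types were present in both kinds of well. The chief cell list, 3 genes in the tables, summed to 26833 to 106471 CPM by plate outside the rule and 37305 to 59501 CPM in wells meeting it. It summed to 17044 to 69207 CPM in ECL wells and 38330 to 128016 CPM in wells of neither rule. The 4 pit cell markers summed to 1950 to 33773 CPM outside the rule and 18269 to 83190 CPM in wells of neither rule. Of the parietal list, Kcne2 and Slc26a7 were at 0 outside the rule. All 7 immune and all 3 enterochromaffin markers were at 0 there. Pit, neck, chief and parietal genes gave 0 calls in the comparison, and chief cell Pgc stood at 82562 ± 22303 CPM outside the rule against 55859 ± 7198 CPM in ECL wells.

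The library labelled corpus replicate 1 had 3 wells outside the rule, with 5747 UMIs in all. When it was added as a further plate, 1123 genes could be tested and 9 passed, all 9 among the 82: Acsl1, Cd24a and Ceacam10 higher and Clu, Gc, Lhfpl5, Pappa2, Ptf1a and Ptms lower. Without pylorus replicate 3 the 82 became 36, and without pylorus replicate 2 they became 129.

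The 79 wells meeting the ECL rule differed little from ECL wells. In the 5 plates with at least 5 wells of each class by the Ghrl limit, 77 of these wells were set against 151 ECL wells, again after their number was seen. Of 4121 genes tested in limma, 3 passed (0.0728%), all higher: Rbp4, B2m and Vgf. The count at an unadjusted p under 0.05 was 256. Rbp4 was 143, 97.1, 128, 134 and 166 CPM by plate (corpus replicates 2, 3 and 4, then pylorus replicates 2 and 3), against 85.4, 42.5, 47.5, 46.6 and 48.6 CPM in ECL wells (1.30 ± 0.22, adjusted p = 0.0349). The groups did not overlap.

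B2m, the light chain of class I histocompatibility molecules, was 309 ± 55.0 against 168 ± 31.0 CPM (0.87 ± 0.16, adjusted p = 0.0494 in limma). Vgf was 643, 230, 269, 385 and 263 CPM against 539, 117, 162, 176 and 146 CPM in the same plates, higher in 5 of 5 plates although the ranges overlapped (0.78 ± 0.15). Vgf was the only one of 8 tested granule genes to pass. Without corpus replicate 4, or without pylorus replicate 2, 0 genes passed, at 257 and 234 with an unadjusted p under 0.05. Without pylorus replicate 3, Cel and Meg3 passed and none of the 3 did.

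The label's markers did not set the wells meeting the ECL rule apart from ECL wells. Acsl1 was 63.1 ± 9.88 against 56.5 ± 10.8 CPM (SD, 5 plates), a log2 difference of 0.16 ± 0.26. Rfx6 was 80.5 ± 7.75 against 76.3 ± 22.1 CPM, Mboat4 300 ± 118 against 222 ± 56.5 CPM and Pcsk1 346 ± 86.9 against 260 ± 102 CPM. Slc18a2 was 4294 ± 755 against 3895 ± 606 CPM. None of these passed in limma, which does not show that the levels are equal.

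When all Ghrl-high wells of these 5 plates were pooled, as the rule defines them, 90 wells stood against 151 ECL wells. Of 4366 genes tested in limma, 5 passed (0.115%), all higher in Ghrl-high wells: Ceacam10, Rbp4, Acsl1, Maged2 and B2m. Ceacam10 was 328, 134, 106, 481 and 417 CPM in the same order of plates, against 37.9, 21.3, 47.6, 36.2 and 8.83 CPM in ECL wells (3.13 ± 0.36, adjusted p = 0.000115). Rbp4 differed by 2.09 ± 0.25 and Maged2, a MAGE family gene, by 1.12 ± 0.20.

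Acsl1 was 371, 143, 70.3, 395 and 334 CPM in the same order, against 65.8, 63.9, 63.4, 41.3 and 48.6 CPM in ECL wells (1.93 ± 0.31, adjusted p = 0.0047). The plate with 70.3 CPM, corpus replicate 4, was the one without wells outside the ECL rule. Without pylorus replicate 2, Acsl1 no longer passed (adjusted p = 0.0516) and 2 genes remained, Ceacam10 and Rbp4. It did not pass either without the filter on low counts, without the plate block (adjusted p = 0.058) or without wells that held 10% or more of pit, neck, chief and parietal markers (adjusted p = 0.239), all in limma. With plates of at least 3 wells admitted, so that the library labelled corpus replicate 1 entered, 3273 genes were tested and 0 passed, 56 of them with an unadjusted p under 0.05.

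Of the lists of endocrine function, only that of fatty acid handling had a call in this comparison, Acsl1, 1 of 11 tested. For the other lists 0 genes passed, among them 9 for hormone maturation, 8 granins and granule genes, 10 transcription factors and 7 receptors, with list medians of 0.23, 0.29, -0.16 and 0.01 beside -0.02 for all genes. Rfx6 was 95.2 ± 26.9 against 76.3 ± 21.9 CPM, Mboat4 297 ± 114 against 222 ± 57.0 CPM and Pcsk2 197 ± 158 against 121 ± 48.9 CPM. Chgb was 4939 ± 854 against 4513 ± 1208 CPM. Whether the difference from ECL wells depended on region was tested as an interaction, and 0 of 4366 genes passed (0%), with 166 at an unadjusted p under 0.05.

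Ghrl-high wells, most of which met the ECL rule, were also set against all other kept wells. The rule itself fixed this contrast, so it carries no test. In the same 5 plates, 844 of 10710 genes (7.88%) were higher in Ghrl-high wells by at least 1 on the log2 scale in every plate. Another 532 (4.97%) were lower by as much. The 20 genes with the largest median difference among those with at least 200 CPM ran from Nov, a matricellular protein gene, at 5.53 to Lrp11 at 4.77. They held granule and hormone processing genes (Resp18, Scg3, Scg5, Chgb, Vgf, Slc18a2, Pcsk1, Mboat4), neural genes (Ncam1, Unc80, Snhg11) and the vitamin D carrier Gc.

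Many of these 20 genes were about as high in ECL wells. For 19 of them the pooled level in ECL wells was at least 50% of that in Ghrl-high wells meeting the ECL rule. This does not make them all ECL genes: Ceacam10 had 35.3 CPM in ECL wells, 30.8 in wells meeting the rule and 2863 outside it, and Tm4sf4 had 202, 245 and 1078 CPM. Nor were they all high in both kinds. In the same order, Nov had 1900, 2115 and 67.7 CPM and Gc had 3509, 3742 and 252 CPM. Scg5 was alike, at 925, 995 and 991 CPM. Mboat4 stood at 306 ± 138 CPM in Ghrl-high wells and 16.2 ± 21.4 CPM in all other kept wells (SD, 5 plates), and Rbp4 at 272 ± 160 against 6.11 ± 8.23 CPM. The somatostatin gene Sst was 117 CPM outside the ECL rule, 107 in wells meeting it, 1266 in ECL wells and 665 in wells of neither rule, pooled. Gast could not be compared, since only the library labelled corpus replicate 1 held it.

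Ghrl-high wells took 1.08%, 9.68%, 2.77% and 1.80% of the kept wells of corpus replicates 1 to 4. They took 1.20%, 6.87% and 5.96% in pylorus replicates 1 to 3. The plates of the regions overlapped, and the means were 3.83% ± 3.96 (SD, n = 4) in corpus and 4.68% ± 3.04 (SD, n = 3) in pylorus, 0.85 percentage points apart (exact two-sided permutation test over 35 splits, p = 0.8, adjusted over the 2 share tests 0.8). The smallest p this design allows is 0.0286. For the wells outside the ECL rule alone the shares were 0.697% ± 0.671 in corpus and 0.862% ± 0.489 in pylorus (exact permutation p = 0.714). Between the 4 plates chosen for like depth and spike-in share, corpus 3 and 4 and pylorus 2 and 3, which leaves out the highest plate, Ghrl-high wells were 2.28% ± 0.688 and 6.42% ± 0.641 without overlap, 4.13 points apart. The exact permutation p of 0.333 is the smallest that 4 plates allow.

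Among Ghrl-high and ECL wells together, Ghrl-high wells were 25%, 27.8%, 30.3% and 21.4% of the corpus wells by plate, from replicate 1 to replicate 4. They were 20%, 55.6% and 57.9% by plate in the pylorus. The 2 deeper pylorus plates lay above every corpus plate and pylorus replicate 1 lay below every one. The difference of 18.3 percentage points (44.5% ± 21.2 against 26.1% ± 3.82) did not pass the exact permutation test (p = 0.2, adjusted 0.4).

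Mostly the same wells were counted again among all wells that met the ECL rule. The share of them that were Ghrl-high was 0 of 9, 23 of 93, 9 of 32 and 6 of 28 by plate in the corpus. It was 2 of 14, 20 of 40 and 19 of 35 by plate in the pylorus. The 95% Wilson intervals were 35.2% to 64.8% in pylorus replicate 2, 38.2% to 69.5% in pylorus replicate 3 and 17.1% to 34.4% in corpus replicate 2, and they cover counting error only. Pylorus replicates 2 and 3 were also the plates with the highest Ghrl background, 940 and 1170 CPM, and the part of that background in the shares was not tested beyond the subtraction above.

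**Figure D5:**
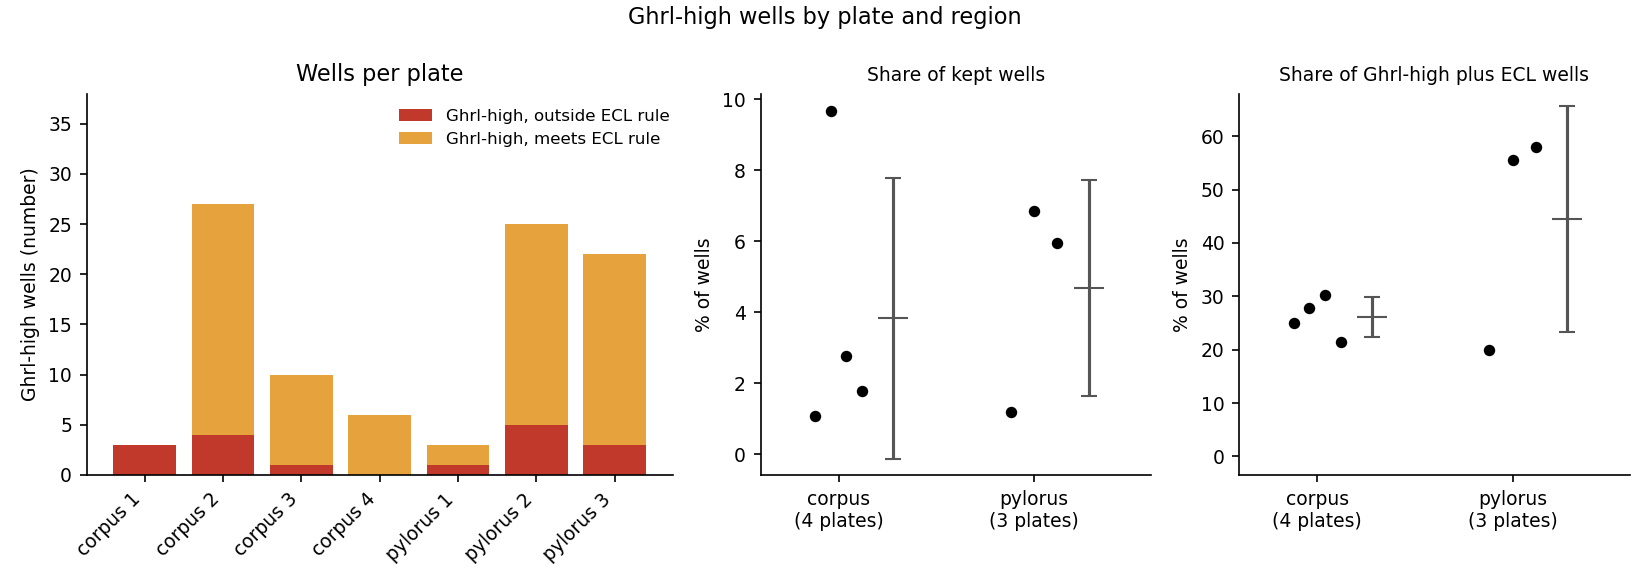
The left panel gives the number of Ghrl-high wells of each kind by plate as stacked bars. The other panels give their share of kept wells and of Ghrl-high plus ECL wells in %, 1 point a plate, with the mean and SD of each region beside the points. Shares of kept wells overlap between the regions, and 2 of the 3 pylorus plates (55.6% and 57.9%) lie above the corpus plates in the right panel.

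Within Ghrl-high wells, pylorus replicates 2 and 3 were compared with corpus replicates 2, 3 and 4. Of 5498 genes tested in limma, 0 passed (0%), with 121 at an unadjusted p under 0.05. The 3 genes with the smallest p were Sst, Rbp4 and Bdp1, a subunit gene of the RNA polymerase III initiation factor. Sst was 31.7 and 0 CPM in the pylorus plates and 163, 71.0 and 356 CPM in the corpus plates, without overlap (-4.31 ± 0.88, adjusted p = 0.995). It passed without corpus replicate 3 and without pylorus replicate 2, the only gene in either case. Rbp4 was 393 and 386 CPM in pylorus against 232, 110 and 122 CPM in corpus (1.40 ± 0.33), and Bdp1 was 25.3 and 25.2 against 69.5, 86.8 and 122 CPM (-1.76 ± 0.42). The plates differed in their wells outside the ECL rule, 5 and 3 in pylorus against 4, 1 and 0 in corpus. In the wells meeting the ECL rule alone, 0 genes passed, with 118 at an unadjusted p under 0.05, and the difference of Rbp4 shrank to 0.29 while those of Sst (-4.36) and Bdp1 (-1.81) did not shrink.

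Acsl1 within Ghrl-high wells was 377 and 314 CPM in pylorus and 349, 134 and 66.7 CPM in corpus, and the regions overlapped. In the wells meeting the ECL rule alone it was 52.6 and 51.9 CPM in pylorus and 70.2, 70.6 and 70.0 CPM in corpus, the other way round. These last values are from the comparison with ECL wells, which left out Hdc and Chga too and was scaled apart. Over all Ghrl-high wells Mboat4 was 316 ± 10.7 CPM in pylorus and 257 ± 145 CPM in corpus, Neurod1 56.3 ± 3.50 and 33.3 ± 10.4 CPM, and Rfx6 110 ± 36.9 and 76.6 ± 3.06 CPM. None of the label's markers passed, nor did any member of the other lists. Scaling by total counts in place of trimmed means moved the median of all genes in this comparison from 0.07 to 0.18 on the log2 scale, with 0 genes passing under either.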

How the data were processed

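Living cells from 4 corpus and 3 pylorus plates, 384 wells each, were profiled by SORT-seq. Per the file headers, the authors deposited tables of UMI counts by gene and well. Reads were mapped to mm9, per the submitters' processing notes, with aligner and counter not given in the sources used here. The deposited counts, other than 81 spike-ins, are whole numbers up to 4095, near the 4096 sequences of a 6-base UMI, and cover 18907 features. Reads of near-identical gene copies may have been split between them.

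Counts were summed per plate and class of well, for plates with at least 5 wells of each class (3 for wells outside the ECL rule). Ghrl, Hdc and Chga were removed first, but between regions Ghrl alone. The planned quasi-likelihood count test was replaced by the fallback named in the plan, since the layout of the tables was not accepted as counts: log2 CPM with a pseudocount of 2, scaled by trimmed means of M values (30% and 5% trims), with limma's mean trend (limma 3.58.1 in R 4.3.3). Fold changes of low genes are understated on that scale. Genes needed at least 10 counts in as many sums as the smaller class had and 15 in total, and an adjusted p (Benjamini-Hochberg) under 0.05 to pass. Shares were compared by exact permutation in numpy 2.4.6. The function for the gene fits was tested on simulated counts. A minimum recovery of changed genes was required for all Ghrl-high against ECL wells and for the regions, not for the other fits.

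Genes were named by size: the 12 largest changes each way against ECL wells among genes that passed, had 100 CPM in a class and moved alike in every plate, the 20 largest against other kept wells, the 3 smallest p where none passed, 6 passing members at most of a list, or its 2 most abundant where none passed, and the label's markers always. Others were named after their values were seen. The members, lists and tests were chosen with earlier results of these data known. Alternatives covered the Ghrl limit, depth, scaling, filter, pseudocount, number of wells, plates left out and blocks.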

Additional observations from a re-analysis of the deposited data

Results flagged for a closer look

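Signal of the same kind appeared in wells left out for having under 1000 UMIs. Wells with Ghrl at 1% or more and at least 3 Ghrl UMIs numbered 1 in corpus replicate 1, 3 in pylorus replicate 1, 1 in pylorus replicate 2 and 1 in pylorus replicate 3. Their highest Ghrl counts were 9, 271, 6 and 50 UMIs in the same order. The other 3 plates had 0 such wells. These wells entered no comparison, and their origin was not tested.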

How the results depend on the processing

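The difference in the share of kept wells, 0.85 percentage points, reversed to -0.13 at a 0.5% Ghrl limit and ran from -0.25 to 2.79 with 1 plate left out, below 0 without pylorus replicate 2 and without corpus replicate 1 (-0.07). Over 4 plates of like depth it was 4.13. The difference in the share of Ghrl-high and ECL wells ran from 11.6 to 30.6 with 1 plate left out.

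Of 5 genes for all Ghrl-high against ECL wells, 3 passed at a 2% Ghrl limit, 2 without a filter on low counts, 0 of 171 tested after thinning wells to 1000 UMIs (5 at an unadjusted p under 0.05, where few genes keep enough counts), 3 without wells of 10% or more pit, neck, chief and parietal markers, 2 without the plate block, 0 with plates of at least 3 wells, and 2 to 7 with 1 plate left out. The cause was not tested. Acsl1 had an adjusted p of 0.239 without the wells of other markers and 0.058 without the plate block. Chgb, which did not pass, changed sign at a 2% limit (-0.037) and with plates of at least 3 wells (-0.717).

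Outside the ECL rule, 82 calls became 159 without the filter, 9 with the library labelled corpus replicate 1, and 36 to 129 with 1 plate left out, while 65 passed with a pseudocount of 0.5 and 84 under scaling by total counts. Of the 84, 81 were among the 82. Within the ECL rule, 3 calls became 1 with a pseudocount of 0.5, 0 without the filter and 0 to 4 with 1 plate left out, with 0 of the 3 kept in 3 of 5 such fits.

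Between regions, 0 calls became 0 to 1 with 1 plate left out. With a replicate block, 13 genes passed on 1 residual degree of freedom. Sst was lower in pylorus (-3.74, adjusted p = 9.07e-11 in limma), and 12 genes were higher, among them the pit cell markers Gkn1 (2.26), Gkn2 (1.97) and Tff1 (1.96) and Xist (3.42), which is high in females. The labels do not give sex, and the part of pit cell RNA or sex was not tested. The labels do not say that a number marks a shared animal. Deviations of same-numbered plates correlated at -0.02 for numbers 2 and 3. With so few plates, these values cannot show whether plates shared an animal. Size factors of DESeq2 were not run, since the tables were not accepted as counts. A fit without Ghrl-high wells meeting the ECL rule could not be made in the planned plates, which held too few wells. Depth limits the wells outside the rule most: 3 UMIs there are 20.8 CPM.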
